A study of Homo sapiens with 4 samples.

Results

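The histone genes are the 51 protein-coding genes in the count table, of 57820 gene IDs in all, whose current or older symbol marks them as a histone. The rule for membership used names only and no measured value, though it was set with earlier results of these data known. Of these, 37 are replication-dependent genes (the H1-1 to H1-6, H2AC, H2BC, H3C and H4C symbols, with H3-4) and 13 are replacement variants (such as H2AZ1, H3-3B and MACROH2A1). The remaining gene, H3-7, was put in neither class and had 0 counts in every library. By the names in the annotation there are 71 replication-dependent genes and 16 variants, and 37 of these names could not be paired with a row of the table and were not analysed here. H1 was complete with 6 of 6 replication-dependent names, while H2A had 9 of 17, H2B 11 of 19, H3 6 of 14 and H4 5 of 15.

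RNA of confluent IMR-90 cells, a fibroblast line from human fetal lung, was sequenced after removal of ribosomal RNA, with 2 libraries of RB1 KO cells and 2 libraries of wild-type cells. The RB1 KO cells were a pool of puromycin-resistant cells that had received Cas9 and a guide RNA against the start codon of RB1 by lentivirus. No transduced and selected wild-type control was described, so what transduction, Cas9 and selection did and what the loss of RB1 did cannot be told apart. All cells were grown without further treatment in high-glucose medium with serum and antibiotics.

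Histones H2A, H2B, H3 and H4 form the core particle around which DNA is wrapped, and H1 binds the linker DNA between particles. Replication-dependent histone genes lie in clusters, have no introns as a rule, and are transcribed mostly in S phase, when new DNA has to be packaged. Their mRNAs end in a conserved stem-loop in place of a poly(A) tail, which the protein SLBP binds, and libraries made after removal of ribosomal RNA keep such mRNAs. Replacement variants are made throughout the cell cycle from single genes, mostly with introns and a poly(A) tail, and enter chromatin also outside replication. RB1 restrains E2F factors, which drive genes of S-phase entry. Confluent fibroblasts have mostly left the cell cycle.

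The stem-loop separated the classes in the genome sequence. In the 150 bases after the stop codon, on GRCh37, the 16-base consensus of a 6-base stem and a 4-base loop was found in 36 of 37 replication-dependent genes and in 1 of 13 replacement variants. Over all 20047 protein-coding genes with an annotated stop codon it was found in 77, or 0.384%. Of the 39 genes that hold it and are not among the 51, 31 are further histone genes. The sequences shown are those of the genes called in the comparison, and 1 gene for each other form that was found. Each runs 5′ to 3′ on the coding strand, with the stem-loop in capitals.
H2AC13, chr6:27776425-27776440: ccaaaGGCTCTTTTCAGAGCCaccta
H2BC21, chr1:149857738-149857753: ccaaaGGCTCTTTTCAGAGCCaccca
H2BC12, chr6:27114145-27114160: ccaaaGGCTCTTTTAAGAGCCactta
H2AC20, chr1:149858941-149858956: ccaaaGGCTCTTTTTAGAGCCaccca
H2AC11, chr6:27101294-27101309: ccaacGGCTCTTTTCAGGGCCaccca
H4C3, chr6:26104545-26104560: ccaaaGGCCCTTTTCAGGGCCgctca
H2AX, chr11:118965608-118965623: acaaaGGCCCTTTTAAGGGCCaccac
The form in H2AC13 and H2BC21 was shared by 21 replication-dependent genes, and that in H2BC12 by 8 (H1-1, H1-6, H2AC21, H2BC4, H2BC5, H2BC11, H2BC12 and H3-4). All 5 H4 genes had the form of H4C3, which no other of the 51 genes had. H2AC11 and H2AC20 each had a form of their own. H2AX, the variant that is phosphorylated next to broken DNA and whose gene makes both a stem-loop and a polyadenylated mRNA, was the only replacement variant with a match. H2BC12L, a copy on chromosome 21 outside the clusters, was the only replication-dependent gene without it.

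Many H2A and H2B genes share a short promoter from which they are read in opposite directions. Among the 51 genes there were 6 such pairs, with 214 to 247 bases between the gene starts. The gaps of the pairs that hold the called genes are shown as the plus strand of GRCh37, on which the H2A gene starts at the right end and the H2B gene at the left end, so that the motifs of both promoters can be seen. Capitals mark CCAAT (the CCAAT box), TATAAA (the TATA box), ATTTGCAT (the octamer, the site of POU2F1) and the E2F-like words TTTGGCGC, TTTCCCGC, TTTCGCGC and TTTGCCGC, each on either strand.
H2BC13 to H2AC13, chr6:27775708-27775950: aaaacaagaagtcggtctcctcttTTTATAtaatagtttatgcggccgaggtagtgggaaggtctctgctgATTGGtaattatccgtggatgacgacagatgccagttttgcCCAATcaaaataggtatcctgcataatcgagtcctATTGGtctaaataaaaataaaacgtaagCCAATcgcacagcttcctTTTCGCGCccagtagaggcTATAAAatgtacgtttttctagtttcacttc
H2BC21 to H2AC20, chr1:149858233-149858467: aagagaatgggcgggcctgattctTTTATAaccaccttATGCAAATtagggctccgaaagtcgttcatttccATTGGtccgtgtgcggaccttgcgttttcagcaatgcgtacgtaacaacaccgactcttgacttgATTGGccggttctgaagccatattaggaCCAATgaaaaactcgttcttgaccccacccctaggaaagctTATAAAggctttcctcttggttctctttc
The gap of H2AC13 and H2BC13 held 4 CCAAT, 2 TATAAA and 1 E2F-like word, with no octamer. The gap of H2AC20 and H2BC21 held 3 CCAAT, 2 TATAAA and 1 octamer, with no E2F-like word. Over the RefSeq promoters (GRCh38.p14, 250 bases before to 50 after the gene start), which matched 45 histone genes of both classes, CCAAT was in 30 of 34 replication-dependent promoters against 39.7% of all 27305 promoters, and TATAAA in 25 against 14.0%. The octamer was in 13 against 2.19%, with 6 of 9 H2A and 6 of 10 H2B promoters. E2F-like words were in 7 of 34 against 3.99%. None of the 4 H4 promoters held CCAAT. Of 11 replacement variant promoters, 9 held CCAAT, 4 held TATAAA, 1 held the octamer and 0 held an E2F-like word. Paired genes share most of these windows, and a match is a description of letters, not of a bound site. The E2F-like match of H4C2 lies after its start codon, in the coding sequence. The octamer counted for H3C4 lies only in a further window that is also the window of H2AC7.

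Gene counts were 33480111 and 34247292 in the RB1 KO libraries and 32827737 and 30873239 in the wild-type libraries. Values below are counts scaled to the size of the library (CPM) with TMM factors unless said otherwise. Calls are at an adjusted p under 0.1 in the quasi-likelihood test of edgeR, with the adjustment of Benjamini and Hochberg over 16426 genes. Whether the libraries of a genotype came from separate cultures is not stated, so the spread behind the p-values is that between these libraries and may be technical. RB1 itself was at 85.3 and 79.0 CPM in RB1 KO cells and 76.5 and 75.2 CPM in wild-type cells (log2 fold change 0.12, standard error 0.0723, adjusted p = 0.507, edgeR), and as small changes at a start codon need not lower a transcript, this does not check the labels. All 10 fibroblast markers were detected, with a summed level of 59700 to 63100 CPM in RB1 KO cells and 48700 to 50400 CPM in wild-type cells. Of 6 epithelial markers 3 were at 0 in every library and the sum stayed at or under 0.534 CPM, while the 4 immune markers summed to at most 0.251 CPM. Of 3 endothelial markers, CDH5 was at 0, and the sum of 157 to 182 CPM against 121 to 124 CPM came nearly all from TEK. The part of these marker differences in the histone values was not tested.

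Of the 51 histone genes, 38 passed the filter on low counts and were tested, 28 replication-dependent and 10 replacement variants. The genes H2AC1, H2AC7, H2BC1, H1-7, H1-8 and H3-7 had 0 counts in all 4 libraries, and H1-6, H2AC18, H2BC12L, H3-4, H3C14, H3C15 and H3-5 had at most 11 counts in any library. H2AC1, H2BC1, H1-6, H1-7 and H1-8 are known from germ cells. Because reads with more than 1 mapping place were left out, copies with identical sequence lose their counts. No stretch of 150 bases, the read length, was found at a single place of GRCh37 in H2AC18, H3C14 or H3C15. H2AC18 shared 385 of its 825 stretches with H2AC19 and 440 with a place in no protein-coding gene. H3C14 and H3C15 shared 369 stretches with each other and 18 with H3C13. Of the tested replication-dependent genes, 23 of 28 were unique in every stretch and 2 in fewer than 50%, namely H4C11 with 11.2%, which shares sequence with H4C12, and H2AC13 with 47.1%, which shares it with H2AC14. The counts of these genes are therefore lower bounds that cover the unique part only.

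Per kilobase of annotated exon, replication-dependent genes had a median level of 36.9 CPM (mean of 4 libraries, range 0.443 to 241, 28 genes) and replacement variants 23.4 CPM (range 1.99 to 68.2, 10 genes). Among the tested genes H1-5 was highest with 241 CPM per kilobase, followed by H1-2 with 210 and H4C3 with 153. The highest tested H2B gene was H2BC12 with 136 and the highest tested H2A gene H2AC11 with 131. H3C4 was the highest tested H3 gene with 88.8 CPM per kilobase. Names that could not be paired have no level here. Among the variants H2AZ1 led with 68.2, ahead of H3-3B with 45.4 and H2AX with 41.4 CPM per kilobase. The length used joins every annotated exon of a gene. In H2AZ1 it equals the whole extent of 2270 bases, and in MACROH2A1 it is 17013 bases. Levels per kilobase can therefore be too low where many exon forms are annotated. The medians of the classes cannot be set against each other on this measure.

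**Figure D1:**
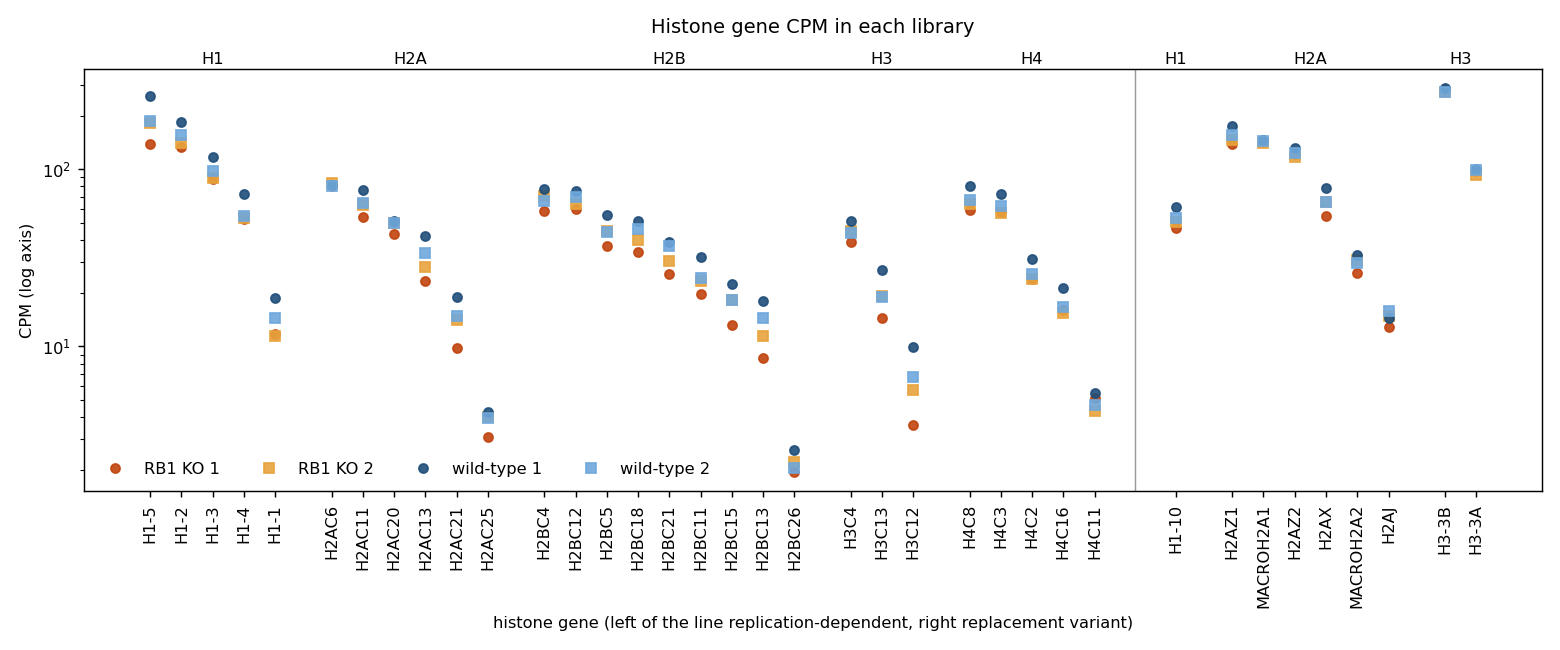
CPM of 37 tested histone genes in each of the 4 libraries on a log axis, grouped by histone type, with replication-dependent genes left of the line and replacement variants right of it. Wild-type replicate 1 was the highest library in 27 of 28 replication-dependent genes, while H3-3B spans only 272 to 286 CPM.

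Nearly every replication-dependent histone gene had a lower level in the RB1 KO libraries, by a modest amount, and few passed the test as single genes. The log2 fold change was negative in 27 of 28 tested genes. Its median was -0.28 (range -0.85 to 0.015), beside a median of -0.01 and 51.7% negative over all 16426 genes. In edgeR's test 2 fell, H2AC13 and H2BC21, and 0 rose, where the shares over all genes were 0.907% lower and 1.99% higher. At an unadjusted p under 0.05, 16 were lower and 0 higher, beside 7.16% lower and 8.16% higher of all genes. DESeq2 called 5 lower (H2AC13, H2BC13, H2BC18, H2BC21 and H3C12) and 0 higher, beside 1.13% and 3.01% of the 14134 genes to which it gave an adjusted p. In 18 of the 28 genes both RB1 KO libraries lay below both wild-type libraries, and in 0 above, beside 24.3% and 22.5% of all genes. The members move together, so these counts are not independent of each other.

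Of the fits that left out 1 library, the difference was smallest without wild-type replicate 1. Summed over the 37 replication-dependent genes in the count table, of 71 names, the level was 1110 and 1260 CPM in RB1 KO cells. In wild-type cells it was 1600 and 1330 CPM. The groups did not overlap, but wild-type replicate 2 lay much closer to RB1 KO replicate 2 than to wild-type replicate 1. Wild-type replicate 1 exceeded replicate 2 in 28 of 28 genes, with a median log2 ratio of 0.28, as large as the median change between the genotypes. RB1 KO replicate 1 was the lowest library in 23 of 28 genes, and its median log2 ratio to RB1 KO replicate 2 was -0.22. The median log2 ratio of RB1 KO replicate 2 to wild-type replicate 2 was -0.069. Without wild-type replicate 1 the median was -0.14, and 25 of 28 genes stayed negative. Leaving out wild-type replicate 2 gave a median of -0.43, RB1 KO replicate 2 -0.36 and RB1 KO replicate 1 -0.24. Counts of calls are not given for these fits. Each leaves 1 library in a group, and the number of calls over all genes changed as well.

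**Figure D2:**
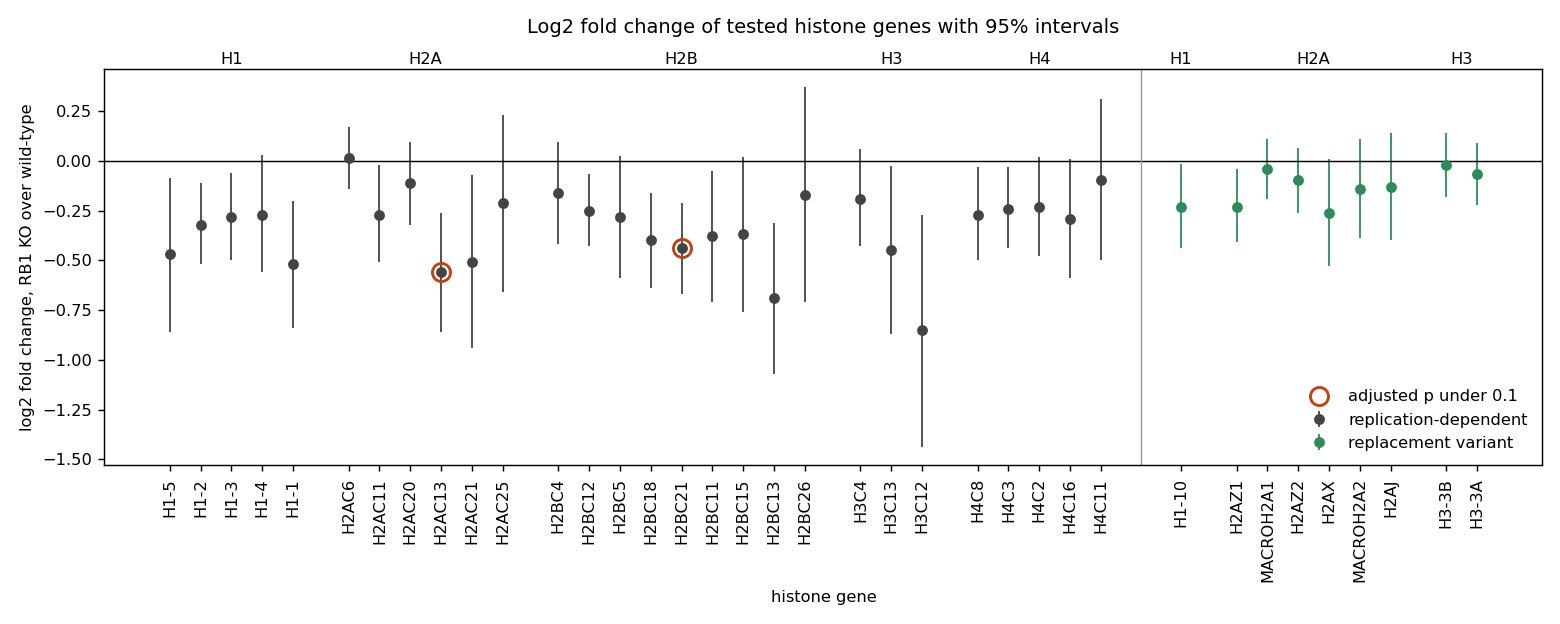
Log2 fold change of RB1 KO over wild-type for 37 tested histone genes with 95% intervals that are not adjusted for the number of genes, grouped by type and class, with circles around the genes at an adjusted p under 0.1. Points lie below 0 for 27 of 28 replication-dependent genes and for the 9 variants shown, and the circled genes are H2AC13 (-0.56) and H2BC21 (-0.44).

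The linker histone H1 compacts chromatin. Among the tested genes it had the most strongly expressed replication-dependent members, but the other types lack many of their names in the count table. All 5 tested H1 genes had both RB1 KO libraries below both wild-type libraries, beside 24.3% of all genes. In the edgeR test 0 passed, and 4 were lower at an unadjusted p under 0.05, beside 7.16% of all genes. H1-5 was at 139 and 183 CPM in RB1 KO cells and at 260 and 188 CPM in wild-type cells. RB1 KO replicate 2 and wild-type replicate 2 were nearly equal, and the other libraries of each genotype lay far apart. Its log2 fold change was -0.47 ± 0.168 (standard error) at an adjusted p of 0.235 (edgeR). H1-2, which is made also in cells that do not divide, was at 134 and 140 CPM against 184 and 157 CPM, with a log2 fold change of -0.32 ± 0.0879 (standard error) at an adjusted p of 0.144 (edgeR). H1-3 was at 88.2 and 89.0 CPM against 118 and 97.2 CPM (log2 fold change -0.28, adjusted p = 0.216, edgeR). Both genes were nearly equal in the RB1 KO libraries, and the spread came from wild-type replicate 1. The median over the H1 genes was -0.32.

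Among the H2A genes 1 of 6 fell, beside 0.907% of all genes, and 1 call is no result about the type. H2AC13 (ENSG00000196747.3, older name HIST1H2AI), a gene of a single exon on chromosome 6 from 27775951 to 27776445, had 766 and 932 counts in RB1 KO cells and 1392 and 1070 counts in wild-type cells. This was 23.3 and 28.0 CPM against 41.8 and 33.6 CPM, with both RB1 KO libraries below both wild-type libraries. Its log2 fold change was -0.56 ± 0.130 (standard error) at an adjusted p of 0.0978 (edgeR), just under the threshold, and -0.38 (adjusted p = 0.312) without wild-type replicate 1. DESeq2 gave it an adjusted p of 0.0189, and with no filter on low counts edgeR gave 0.154. H2AC11 was at 53.8 and 63.2 CPM against 76.0 and 64.7 CPM (log2 fold change -0.27, adjusted p = 0.291, edgeR). H2AC20 was at 43.1 and 50 CPM against 51.0 and 49.7 CPM, so that the groups overlapped (log2 fold change -0.11). H2AC6 had the sole positive value of the replication-dependent genes, with 80.2 and 83.5 CPM against 81.4 and 80.6 CPM, a log2 fold change of 0.015 (95% interval -0.14 to 0.17). It turned to -0.052 when only library totals were used and to -0.46 with ERCC scaling. The median over the H2A genes was -0.24.

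All 9 tested H2B genes had negative values, with a median of -0.37, and 1 fell. Over all genes 51.7% were negative and 0.907% were called lower. H2BC21 (ENSG00000184678.8, older name HIST2H2BE) lies on chromosome 1 from 149856009 to 149858232 and makes a longer mRNA with a poly(A) signal besides the stem-loop form. It had 847 and 1008 counts in RB1 KO cells and 1301 and 1179 counts in wild-type cells, or 25.8 and 30.3 CPM against 39.1 and 37.1 CPM. Here the wild-type libraries lay close together, unlike in most of these genes. Its log2 fold change was -0.44 ± 0.0996 (standard error) at an adjusted p of 0.0874 (edgeR), and -0.39 (adjusted p = 0.268) without wild-type replicate 1. It was also lost without RB1 KO replicate 1 (-0.33, adjusted p = 0.142) and with no filter on low counts (adjusted p = 0.152), while DESeq2 kept it (adjusted p = 0.0532). With ERCC scaling neither H2AC13 nor H2BC21 passed (adjusted p of 0.158 and 0.243, edgeR). H2BC4 was at 58.0 and 70.4 CPM against 77.3 and 66.6 CPM (log2 fold change -0.16), H2BC12 at 59.5 and 63.4 CPM against 75.8 and 69.8 CPM (-0.25), and H2BC5 at 36.8 and 45.1 CPM against 55.3 and 44.1 CPM (-0.28). The groups overlapped in H2BC4 and H2BC5 and not in H2BC12, and none of these 3 passed (adjusted p of 0.538, 0.192 and 0.368 from edgeR). The annotated extent of H2BC4 overlaps H4C3 on the other strand, and the strand column that was counted is not stated, so these reads may not be told apart. The same limit holds for H1-3, H2AC21, H2BC5, H2BC18, H3C4 and H4C8, which annotated genes on the other strand also overlap.

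H3 was represented by 3 tested genes, none of which passed edgeR's test. H3C12 had the lowest log2 fold change of all histone genes at -0.85 (standard error 0.254, adjusted p = 0.169, edgeR), from 3.59 and 5.65 CPM in RB1 KO cells against 9.94 and 6.76 CPM in wild-type cells. Its level was low, with a mean of 7.56 CPM per kilobase, its libraries spread widely within each genotype, and it overlaps H2AC17 on the same strand. H3C13 was at 14.5 and 19.2 CPM against 26.9 and 19.1 CPM (log2 fold change -0.45), and H3C4 at 38.9 and 44.7 CPM against 51.3 and 43.7 CPM (-0.19). In both of these RB1 KO replicate 2 was slightly above wild-type replicate 2.

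The H4 genes had the smallest spread between members, with 5 of 5 negative, a median of -0.24 and a range from -0.29 to -0.097. H4C3 was at 57.2 and 56.7 CPM in RB1 KO cells against 72.3 and 61.8 CPM in wild-type cells (log2 fold change -0.24, adjusted p = 0.268, edgeR). H4C8 was at 58.8 and 63.8 CPM against 80.6 and 66.7 CPM (-0.27, adjusted p = 0.269), and H4C2 at 24.1 and 24.0 CPM against 31.0 and 25.5 CPM (-0.23, adjusted p = 0.366). RB1 KO replicate 1 was the lowest library in only 1 of the 5 H4 genes, against 9 of 9 H2B genes.

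Negative values were found in each cluster. The 20 tested genes of the large cluster on chromosome 6 had a median log2 fold change of -0.28, with 19 negative and 1 called. The 5 tested genes near the centromere of chromosome 1 had -0.44, with 5 negative and 1 called. Over all genes 51.7% were negative and 0.907% were called lower, and 1 call is no result about a cluster. The 2 genes at the end of the long arm of chromosome 1, H2AC25 and H2BC26, had -0.21 and -0.17, and H4C16 on chromosome 12 had -0.29. Genes with an annotated extent under 1 kb, the usual stem-loop form, had a median of -0.27 (16 tested), and genes with longer annotated forms -0.29 (12 tested). Partners of a shared promoter did not always have values of the same size. H2AC13 and H2BC13 had -0.56 and -0.69, H2AC11 and H2BC11 had -0.27 and -0.38, and H2AC25 and H2BC26 had -0.21 and -0.17. H2AC20 and H2BC21, by contrast, had -0.11 and -0.44, and H2AC6 and H2BC4 had 0.015 and -0.16. The 7 tested genes with an E2F-like word in the promoter had a median log2 fold change of -0.38 (range -0.69 to -0.23) and the 19 without it -0.28 (range -0.52 to 0.015). For the octamer the medians were -0.26 with it (10 genes) and -0.29 without it (16 genes). These splits are descriptions over few genes, several of which share a promoter. The genes with a match include H4C2 (-0.23), whose E2F-like word is in its coding sequence, and H3C4, whose octamer is in the window of H2AC7.

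The replacement variants moved less, and 0 of 10 passed edgeR's test in either direction, as with DESeq2. At an unadjusted p under 0.05 in edgeR, 2 were lower and 0 higher, beside 7.16% and 8.16% of all genes. Their median log2 fold change was -0.11, with a lowest value of -0.26. In 5 of the 10 both RB1 KO libraries lay below both wild-type libraries, beside 24.3% of all genes. The difference between the classes was not tested, since the rule that set them was written with earlier results known. H2AZ1, the main H2A.Z gene, whose protein marks promoters and is made most in dividing cells, was at 139 and 147 CPM in RB1 KO cells and at 176 and 157 CPM in wild-type cells, with separate groups (log2 fold change -0.23, standard error 0.0793, adjusted p = 0.231, edgeR). Its paralog H2AZ2 was at 122 and 117 CPM against 132 and 124 CPM (-0.098, adjusted p = 0.559). H2AX was at 54.5 and 65.3 CPM against 78.7 and 65.0 CPM (-0.26, standard error 0.117, adjusted p = 0.34, edgeR), with overlapping groups. Its value was the lowest among the variants and near the median of the replication-dependent genes, with which it shares the stem-loop. H2AZ1 and H1-10, which have no stem-loop match, both had -0.23. A link between the stem-loop and these values was not tested.

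H3-3A and H3-3B encode the same protein, H3.3, which is deposited at active genes and at telomeres. H3-3B was at 281 and 272 CPM in RB1 KO cells and at 286 and 274 CPM in wild-type cells, a log2 fold change of -0.019 with a 95% interval from -0.18 to 0.14. H3-3A was at 97.5 and 93.4 CPM against 101 and 98.5 CPM (-0.064, 95% interval -0.22 to 0.091), with 66.5% of its stretches at a single place in the genome. These intervals hold for TMM scaling, and with ERCC scaling, which moved the median of all genes to -0.49, the values were -0.49 for H3-3B and -0.54 for H3-3A. MACROH2A1, an H2A with an added macrodomain found on inactive chromatin, was at 142 and 141 CPM against 147 and 144 CPM (-0.043, 95% interval -0.19 to 0.11). MACROH2A2 was at 26.1 and 30.8 CPM against 33 and 29.7 CPM (-0.14), and H2AJ, which accumulates in senescent fibroblasts, at 12.8 and 14.8 CPM against 14.4 and 15.8 CPM (-0.13). The groups overlapped in both.

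Of the H1 variants, H1-10 was at 46.9 and 50.3 CPM against 61.0 and 52.8 CPM (-0.23, standard error 0.0923, adjusted p = 0.295, edgeR). An antisense gene overlaps H1-10, and genes on the other strand overlap H2AZ1, H3-3A, H3-3B and both MACROH2A genes, so reads from the other strand cannot be set apart here.

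**Figure D3:**
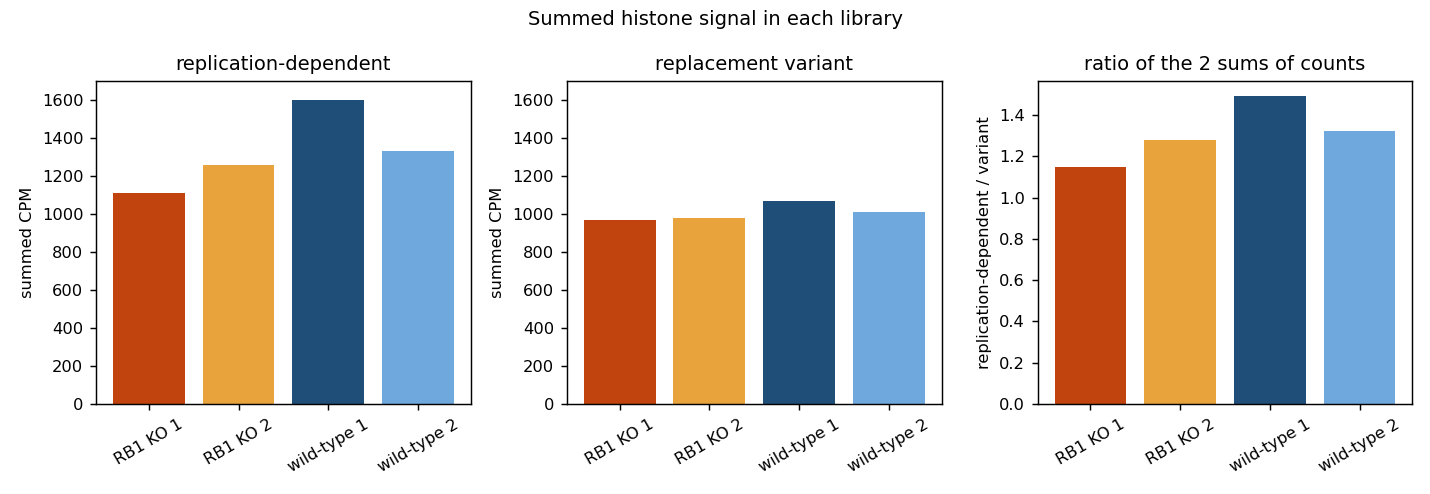
Summed CPM of the 37 replication-dependent genes, summed CPM of the 13 replacement variants, and the ratio of their summed counts, as 1 bar per library with axes from 0. The ratio is 1.15 and 1.28 in the RB1 KO libraries and 1.49 and 1.32 in the wild-type libraries, and the variant sums span 970 to 1070 CPM.

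The shares and the ratio here cover 37 of 71 replication-dependent names and 13 of 16 variant names, not the whole classes. As a share of all gene counts, these replication-dependent genes took 0.109% and 0.122% in RB1 KO cells and 0.162% and 0.137% in wild-type cells. The variants took 0.0952% and 0.0952% against 0.109% and 0.104%. The ratio of replication-dependent to variant counts, which does not depend on the scaling between libraries, was 1.15 and 1.28 in RB1 KO cells and 1.49 and 1.32 in wild-type cells. The groups were separate, by a gap smaller than the difference between the replicates of either genotype. In these bulk libraries fewer cells in S phase and less histone mRNA per cell cannot be told apart. The authors describe the cell cycle phases of both confluent lines, measured by FACS, as comparable. The S-phase and G2/M shares they give were slightly smaller in RB1 KO than in wild-type cells, without a spread between replicates. The part of this difference in the histone values was not tested. Whether the cultures measured were those of these libraries is not stated.

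The order of the libraries was shared with other genes of DNA synthesis. In the list of S-phase genes (replication origin and fork proteins, nucleotide synthesis, E and A cyclins), 35 of 35 tested genes had negative values (median log2 fold change -0.33), and 2 fell and 0 rose, beside 0.907% and 1.99% of all genes. Wild-type replicate 1 was the highest library in 34 of the 35 and RB1 KO replicate 1 the lowest in 31. CCNA2, cyclin A2 of S and G2 phase, was at 50.9 and 52.1 CPM against 68.1 and 62.3 CPM (-0.34, adjusted p = 0.0914, edgeR), and RFC5, a subunit of the clamp loader, at 9.10 and 9.46 CPM against 12.8 and 13 CPM (-0.48, adjusted p = 0.099, edgeR). Neither call held with DESeq2 (adjusted p of 0.105 and 0.187) or without wild-type replicate 1 (adjusted p of 0.425 and 0.274, edgeR), and that of RFC5 was lost under most other alternatives. DESeq2 called 3 other genes of the list lower, MCM7, GINS2 and TK1. In the median gene of the S-phase list wild-type replicate 1 stood 0.279 above the mean of the 4 libraries on the log2 scale and RB1 KO replicate 1 stood at -0.266. For replication-dependent histones these positions were 0.273 and -0.226, and for replacement variants 0.072 and -0.084. The part of S-phase genes in the histone values was not tested.

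**Figure D4:**
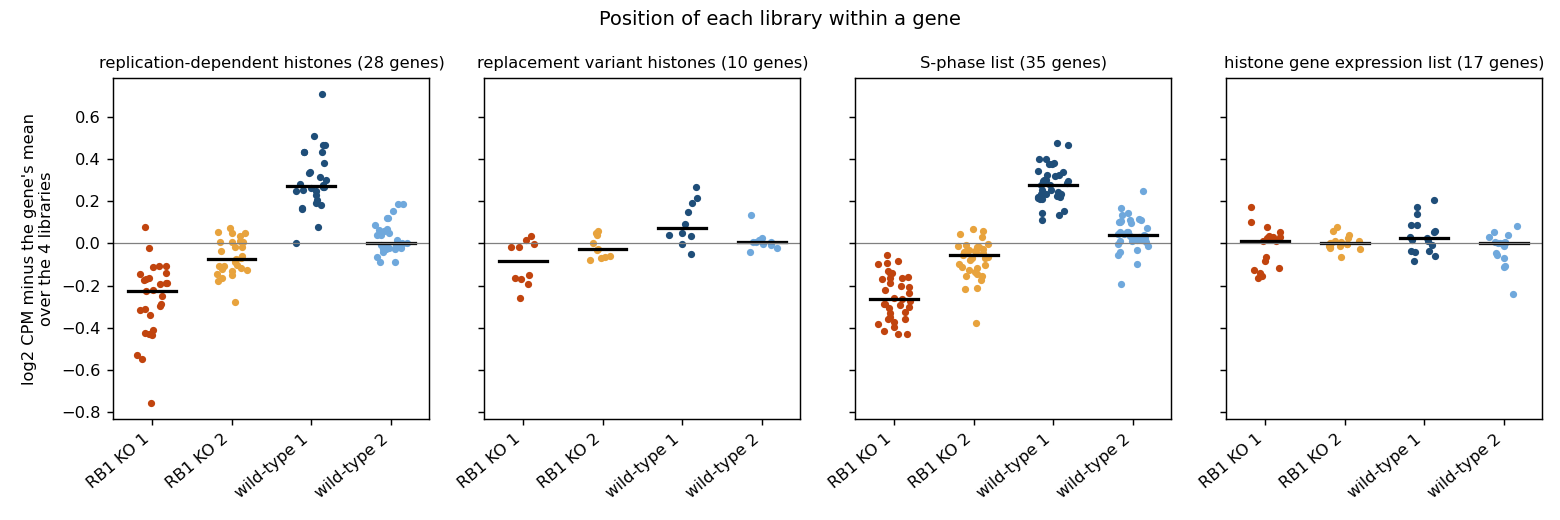
Log2 CPM of each tested gene minus its mean over the 4 libraries, by library, for replication-dependent histones, replacement variants, the S-phase list and the histone gene expression list, with black lines at the medians. Wild-type replicate 1 is high (medians 0.273 and 0.279) and RB1 KO replicate 1 low (medians -0.226 and -0.266) in replication-dependent histones and in the S-phase list, and all medians of the histone gene expression list lie between 0.003 and 0.024.

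Genes that transcribe histone genes or form the 3′ ends of their mRNAs had wild-type replicate 1 as the highest library in 6 of 17 cases and RB1 KO replicate 1 as the lowest in 7. The difference from the other lists was not tested. Of 17 tested genes of that list 8 were negative and 9 positive, with a median log2 fold change of 0.00076. In edgeR's test 0 passed, with 0 at an unadjusted p under 0.05 and 0 called by DESeq2. NPAT, the cyclin E-dependent activator of histone clusters, was at 31.4 and 28.9 CPM in RB1 KO cells and at 28.5 and 28.3 CPM in wild-type cells (0.087, standard error 0.086, adjusted p = 0.693, edgeR), which was -0.39 with ERCC scaling. SLBP, which binds the stem-loop and is made in S phase, was at 43.3 and 50.4 CPM against 53.8 and 44.3 CPM, with overlapping groups (-0.067, 95% interval -0.33 to 0.2). As in the replication-dependent histones, wild-type replicate 1 was the highest library and RB1 KO replicate 1 the lowest.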

How the data were processed

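RNA-seq libraries of RB1 KO and wild-type cells (2 each, grouped by the genotype in the labels) were analysed. The authors ran STAR, given as 2.7.2b by the submitters' processing notes, with GRCh37 as the genome, kept read pairs with 1 mapping place and counted them per GENCODE 19 gene. The deposited values are raw counts, with no normalization. The 99 spike-in lines (92 ERCC, 7 SIRV) and 4 summary lines entered neither library sizes nor tests. Reads outside genes made up 12.96% to 15.56% of the table.

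Names, exons and coordinates came from GENCODE 44 mapped to GRCh37, which paired 55538 of 57820 IDs. Counts were tested with edgeR 4.0.16 in R 4.3.3 (TMM, filterByExpr with a minimum count of 10 and total of 15, quasi-likelihood test, two-sided, Benjamini-Hochberg over 16426 genes, calls at an adjusted p under 0.1). The edgeR test was also run on simulated counts, with means and dispersions taken from the fit of these data. Standard errors are the log2 fold change over the square root of F. Alternatives were DESeq2 1.42.0, limma-voom (limma 3.58.1), RLE factors, library totals, ERCC totals, other filters, an adjusted p under 0.05, a replicate block and leaving out each library.

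Members, lists and alternatives were chosen with earlier results of these data known. Named genes are the tested replacement variants (1 is counted but not reported here), each member called, the 3 tested genes of highest mean CPM in each replication-dependent type, RB1, NPAT, SLBP, and the called genes of the histone gene expression and S-phase lists. Others were named for completeness or after their values were seen, such as H2BC13 and H2BC18. Promoters are RefSeq's (GRCh38.p14). Precision is limited by 2 libraries per genotype, and counts of identical gene copies are too low.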

Additional observations from a re-analysis of the deposited data

How the results depend on the processing

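Under every alternative run, replication-dependent histone genes had a negative median and 0 were called higher, but the calls of single genes were not stable. Of these genes 5 were called lower with DESeq2, 1 with limma-voom, 1 with RLE factors, 7 with library totals only, 0 with no filter, 1 with at least 10 counts in every library, and 0 at an adjusted p under 0.05, against 2 in the main comparison. H2AC13 was lost with limma-voom, RLE factors and at least 10 counts in every library, where H2BC21 stayed. With ERCC totals 2 were called lower, H2BC13 and H3C12. Leaving out 1 library gave 0 to 16 calls and a median of -0.43 to -0.14 for replication-dependent genes, and 0 to 1 calls and a median of -0.15 to -0.048 for the variants. Library totals moved the median of all genes to -0.076 and that of the variants to -0.18. Over all genes they gave 326 lower and 221 higher calls, against 149 and 327 in the main comparison. ERCC totals moved the median of all genes to -0.49. The medians of -0.74 (replication-dependent) and -0.59 (variants) are to be read against it. Relative to gene counts, ERCC lines came to 0.2067% for RB1 KO replicate 1 and 0.2105% for replicate 2. For wild-type cells this share was 0.1873% for replicate 1 but 0.1347% for replicate 2. Wild-type replicate 1 thus lay closer to both RB1 KO libraries than to wild-type replicate 2. The part of wild-type replicate 2 in the ERCC shift was not tested. Under ERCC totals H2AC6 had -0.46, RB1 -0.36 and NPAT -0.39, each positive in the main comparison. H2AC6 had -0.052 with library totals. Over the fits that left out 1 library, H2AC6 ran from -0.012 to 0.046, H3-3B from -0.048 to 0.023 and SLBP from -0.2 to 0.091, so that their signs are not settled. The causes were not tested. The replicate numbers did not pair the samples (correlation of deviations -0.2), and with the replicate number as a block 0 replication-dependent genes and 0 variants were called, while over all genes the block gave 74 lower and 152 higher calls. A crossed pairing of the numbers, added after seeing the data, gave 22 replication-dependent genes and 3 variants called lower, and 1362 lower and 1612 higher over all genes.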
